A study of Mus musculus with 28 samples.

Results

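The genes described here are 10 genes of the integrated stress response that centre on the transcription factor ATF4, measured in the hippocampus of 3xTg and wild-type (WT) mice given senolytic drugs or vehicle. They are Atf4, Atf5, Atf3, Ddit3, Chac1, Trib3, Ddit4, Sesn2, Asns and Psat1, picked by symbol as ATF4 and genes of its pathway out of 24062 genes in the table. They were picked with earlier results of these data known, so their values and p-values are given as a description of the members and support nothing by themselves. All 10 passed the filter on low counts, which 16369 genes passed in all.

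The 3xTg mouse models Alzheimer's disease through transgenes for human tau and amyloid precursor protein, driven by a neuronal Thy1 cassette, and a mutant presenilin knock-in. The animals labelled BL6/129 are the WT comparison. Bulk RNA-seq was done on female hippocampus in 7 groups of 4 libraries. The 3xTg groups received NAVI (the BCL-2 family inhibitor ABT263, navitoclax), DQ (the kinase inhibitor dasatinib with the flavonoid quercetin), or a vehicle labelled VehN or VehD. The WT groups received NAVI, DQ or a vehicle labelled only Veh. No source used here gives age, dose or schedule. The labels do not tie each library to an animal of its own, so p-values may reflect technical spread alone.

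In the integrated stress response, kinases that sense unfolded protein, amino acid shortage, haem shortage or viral RNA phosphorylate the initiation factor eIF2. General translation then falls, while the Atf4 mRNA, which has short upstream reading frames, is translated better. ATF4 pairs with C/EBP proteins and switches on genes of amino acid synthesis, amino acid transport and tRNA charging, and, under lasting stress, the pro-apoptotic factor CHOP, the product of Ddit3. ATF4 protein is set largely at translation, so mRNA levels of ATF4 itself are not a measure of its activity.

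ATF4 dimers bind a composite element, TGATGNAA, which reads TTNCATCA on the other strand. It was looked for on both strands in the RefSeq promoter windows of build GRCm38.p6, which run from 250 bases before to 50 bases after each start. The element was present for 4 of 10 members (40%) and for 4.51% of 27025 genes with a window. These 4 stretches of 30 bases are shown, 5′ to 3′ on the gene's strand with the match in capitals, since the letters are the feature that these members share.
Chac1: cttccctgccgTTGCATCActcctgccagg
Atf3: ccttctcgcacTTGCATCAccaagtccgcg
Trib3: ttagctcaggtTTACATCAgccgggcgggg
Asns: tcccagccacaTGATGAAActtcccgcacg

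The Chac1 stretch lies at chr2:119351038-119351067 on the plus strand, with the match starting 193 bases upstream of the start. The Atf3 stretch lies at chr1:191183425-191183454 on the minus strand, 110 bases upstream. The Trib3 stretch is at chr2:152344028-152344057 on the minus strand, where the match begins 15 bases downstream of the start, and the Asns stretch is at chr6:7693214-7693243 on the minus strand, 23 bases upstream. The windows of the other 6 members, Atf4, Atf5, Ddit3, Ddit4, Sesn2 and Psat1, did not hold these letters. A match is a description of the sequence and not evidence of binding, and elements outside the window were not looked for.

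Levels differed widely between members. Per kilobase of exon, and averaged over the 28 libraries, Atf4 was at 52.1 CPM per kb (CPM being counts scaled to library size), Asns at 46.6 and Psat1 at 40.6. Asns makes asparagine and Psat1 carries out a step of serine synthesis. Ddit4, an inhibitor of mTORC1, stood at 25.7 CPM per kb, Ddit3 at 9.45, Atf5 at 7.85 and Sesn2, a leucine sensor, at 3.78. Chac1, which degrades glutathione, was at 2.59 CPM per kb and Atf3, a stress-induced transcription factor, at 0.965. Trib3, a pseudokinase that restrains ATF4 and CHOP, was lowest at 0.190 CPM per kb, resting on 6 to 34 counts per library. Libraries held 32080861 to 54019519 counts.

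**Figure D1:**
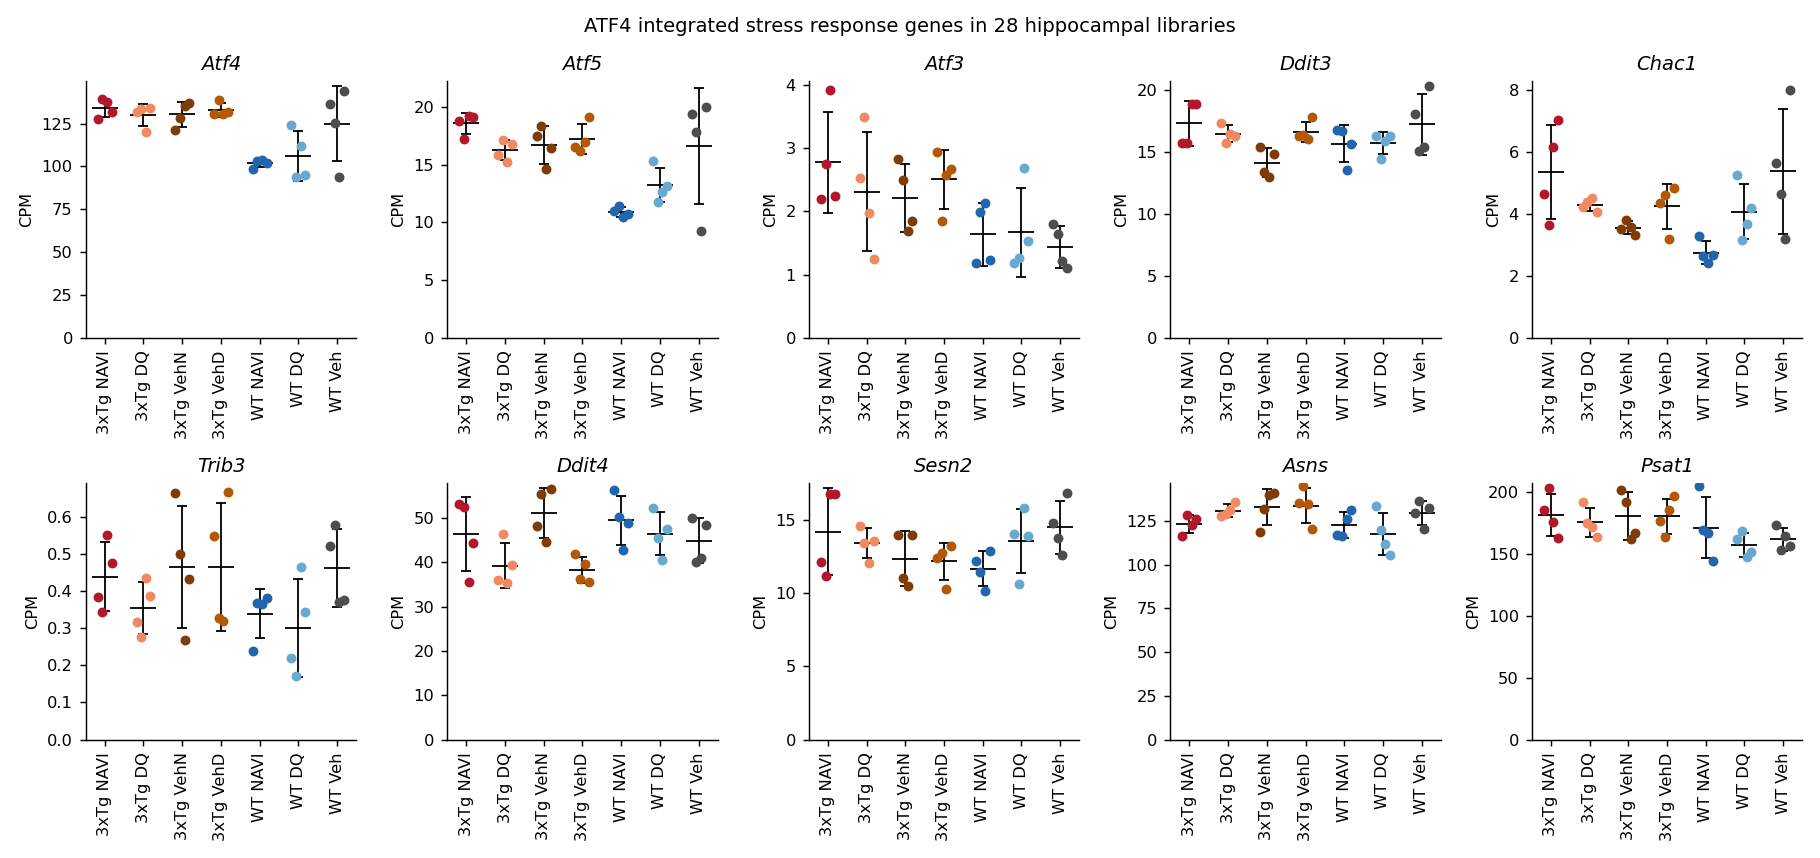
CPM of each member (vertical axes, starting at 0) in the 28 libraries, by group; points are libraries in replicate order and black bars are the mean and SD of 4 libraries. For Atf4 and Atf5 the 4 WT libraries with NAVI form a tight low cluster, and the WT vehicle group holds 3 high libraries and 1 low library.

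All 8 hippocampal neuron markers listed had counts in every library, with Neurod6, a pyramidal neuron factor, at 185 to 327 CPM and the granule cell factor Prox1 at 36.2 to 75.1 CPM. Neighbouring tissue varied within groups: 10 choroid plexus markers summed to 69.3 to 5908 CPM per library, and 12 thalamus and habenula markers to 141.1 to 618 CPM. In bulk tissue, fewer cells of a type and less RNA per cell cannot be told apart.

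Atf4, which lies on chromosome 15 from 80255184 to 80257541 (GENCODE, GRCm38), ran high and even in the 3xTg hippocampus and split in WT. With NAVI its level was 127.8, 139.5, 137.5 and 131.9 CPM in 3xTg, against 98.7, 103.0, 103.5 and 102.2 CPM in WT. With DQ it was 131.8, 133.7, 120.2 and 134.0 CPM in 3xTg, against 124.2, 93.6, 111.7 and 94.8 CPM in WT. With vehicle the 3xTg libraries had 121.2, 128.1, 135.4 and 136.7 CPM (VehN) and 130.8, 139.0, 130.7 and 131.6 CPM (VehD), against 136.5, 125.6, 94.1 and 144.0 CPM in WT. The genotypes did not overlap with NAVI and overlapped with DQ and with vehicle, where WT replicate 3 was at the level of the WT NAVI libraries and the other 3 were within or above the 3xTg range.

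Across all treatments, 16 3xTg libraries spanned 120.2 to 139.5 CPM for Atf4, with a median of 131.8, and 12 WT libraries spanned 93.6 to 144.0 CPM, with a median of 103.2. Of the WT libraries, 8 lay below every 3xTg library and 1 lay above. The 8 were all 4 with NAVI, DQ replicates 2, 3 and 4, and vehicle replicate 3. At least 8 WT libraries lay below all 3xTg libraries for 2.43% of tested genes, and at least 8 lay above for 1.94%.

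Atf5, an ATF4-related factor that is also controlled by upstream reading frames and drives mitochondrial stress genes, lies on chromosome 7 from 44812256 to 44816658. With NAVI it had 18.8, 17.2, 19.2 and 19.1 CPM in 3xTg, against 10.98, 11.44, 10.43 and 10.68 CPM in WT. With DQ it had 15.9, 17.1, 15.2 and 16.8 CPM in 3xTg, against 15.3, 11.8, 12.7 and 13.1 CPM in WT. The NAVI groups were far apart, while in the DQ groups WT replicate 1 lay within the 3xTg values. With vehicle, Atf5 had 17.4, 18.4, 14.6 and 16.4 CPM (VehN) and 16.5, 16.2, 17.0 and 19.2 CPM (VehD) in 3xTg, against 19.4, 17.8, 9.24 and 19.98 CPM in WT. The same 8 WT libraries that were below every 3xTg library for Atf4 were below every 3xTg library for Atf5. Atf5 shares 82 exon bases with Nup62 and Il4i1 on the opposite strand, and since no source used here gives the strand setting of the counting, a part of its counts is uncertain.

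Chac1 lies on chromosome 2 from 119351229 to 119354381. With NAVI it had 4.65, 3.64, 6.18 and 7.04 CPM in 3xTg, against 3.30, 2.64, 2.42 and 2.67 CPM in WT. With vehicle it had 3.53, 3.81, 3.60 and 3.32 CPM (VehN) and 4.36, 4.62, 3.21 and 4.83 CPM (VehD) in 3xTg, against 5.66, 4.66, 3.19 and 8.02 CPM in WT. With NAVI every 3xTg library was above every WT library, and with vehicle 3 of 4 WT libraries were above the VehN libraries. With DQ the values were 4.23, 4.39, 4.51 and 4.08 CPM in 3xTg, against 5.25, 3.16, 3.68 and 4.20 CPM in WT, and the groups overlapped.

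By group mean, the order of Chac1 was WT with vehicle (5.38 ± 2.03 CPM, SD, n = 4), 3xTg with NAVI (5.38 ± 1.52), 3xTg with DQ (4.301 ± 0.186), 3xTg with VehD (4.25 ± 0.724), WT with DQ (4.07 ± 0.892), 3xTg with VehN (3.56 ± 0.204) and WT with NAVI (2.76 ± 0.376). Neighbours in that order differed by less than the larger SD of the pair, except at the low end, where WT with NAVI did not overlap with 3xTg VehN.

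The genotype comparison with NAVI held 3 members called by edgeR's quasi-likelihood test at an adjusted p under 0.05, all higher in 3xTg, where 3.29% of the tested genes were called higher and 5.98% in either direction. Chac1 was higher by a log2 difference of 0.96 (SE 0.216, adjusted p = 0.00932). Atf5 was higher by 0.77 (SE 0.146, adjusted p = 0.00221), and Atf4 by 0.40 (SE 0.0921, adjusted p = 0.0110). The groups did not overlap for these 3 genes, nor for Atf3, which was higher by 0.75 (SE 0.294) without passing (adjusted p = 0.109). For 6.97% of tested genes all 4 3xTg libraries were above all 4 WT libraries. The median log2 difference was 0.32 over the 10 members and 0.0018 over all tested genes.

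These 3 calls held when any 1 of the 8 libraries was left out, with log2 differences of 0.81 to 1.11 for Chac1, 0.75 to 0.80 for Atf5 and 0.38 to 0.42 for Atf4. The 2 groups also differed in how counts followed the GC content of transcripts, with a mean slope per 10 percentage points of 0.140 on the log2 scale in 3xTg with NAVI and -0.0620 in WT with NAVI. With that trend removed in each library, Chac1 was at 0.72 (edgeR adjusted p = 0.0151), Atf5 at 0.48 (adjusted p = 0.0535) and Atf4 at 0.22 (adjusted p = 0.237). Among microglia markers, 6 of 10 were called higher in the same comparison. The 10 summed to 549 to 781 CPM in 3xTg with NAVI, against 412 to 484 CPM in WT with NAVI. Of 10 astrocyte markers 3 were called higher, with sums of 6970 to 8197 CPM in 3xTg and 6808 to 7144 CPM in WT, while 10 of 10 oligodendrocyte markers had a positive log2 difference, with a median of 0.44, 0 called by edgeR and 6 at an unadjusted p under 0.05 (27.4% of tested genes). The oligodendrocyte markers summed to 6510 to 8003 CPM in 3xTg with NAVI and 3927 to 6638 CPM in WT with NAVI. No marker of these 3 lists was at 0 in any library. Choroid plexus markers (10 of 10 positive, median 0.56) and thalamus and habenula markers (11 of 12 positive, median 0.53) had 0 calls by edgeR and 0 genes at an unadjusted p under 0.05. The part of these cell types in the result was not tested.

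**Figure D2:**
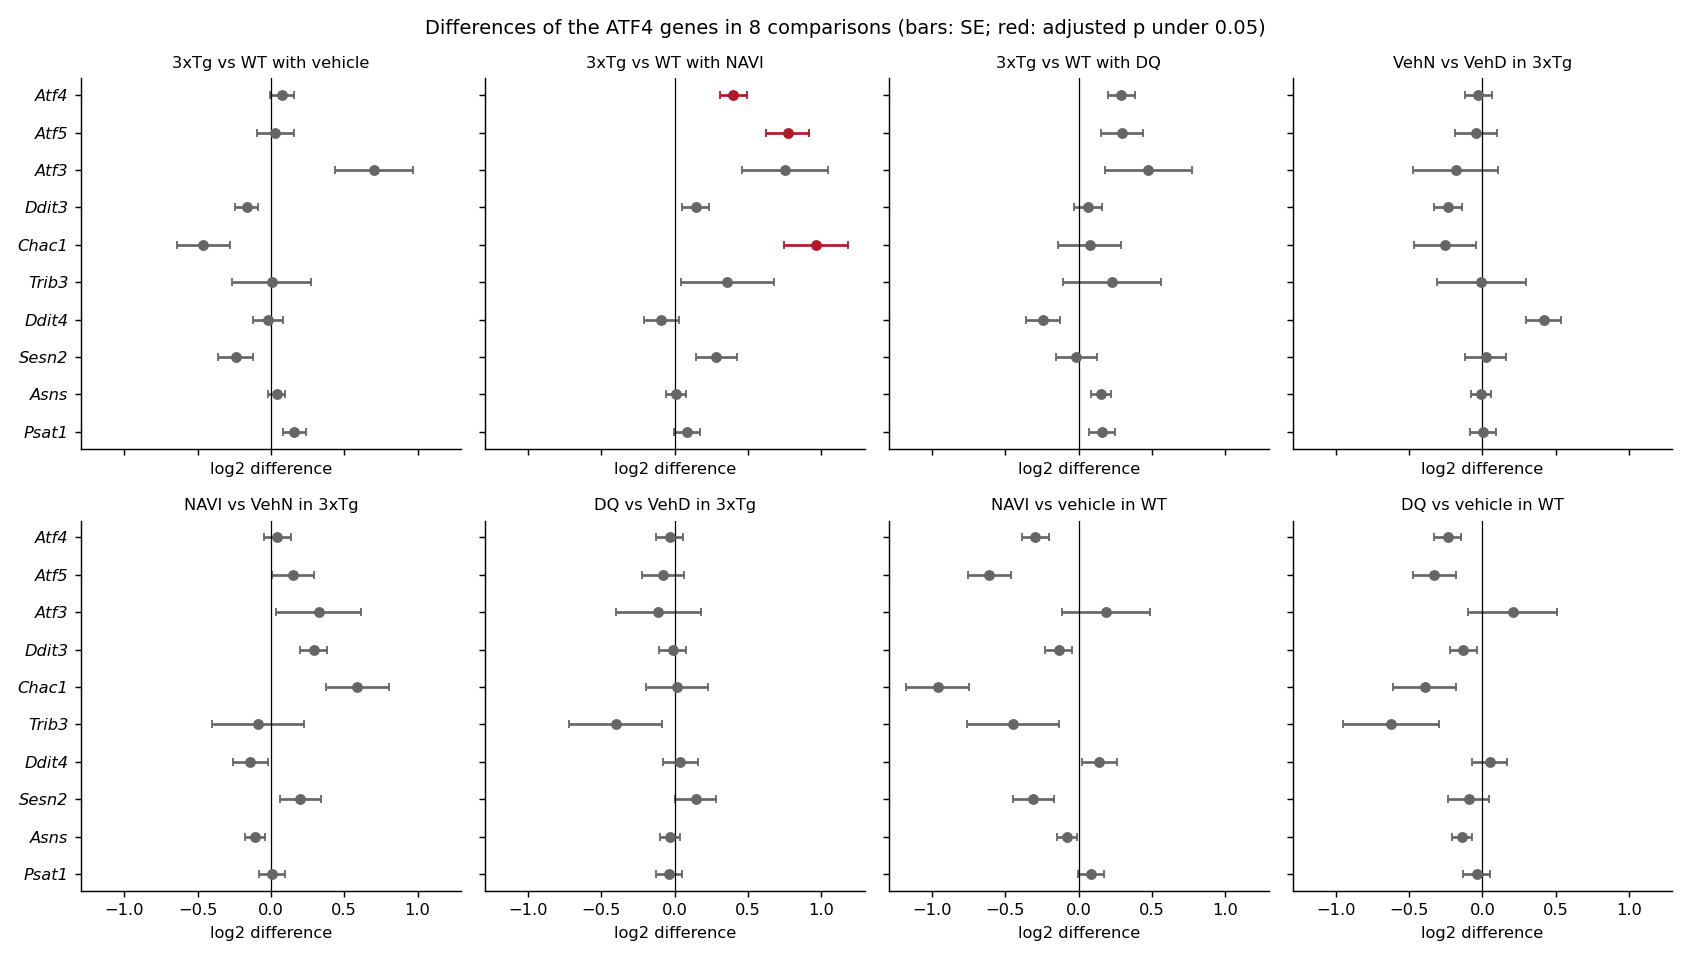
Log2 differences of the members (horizontal axis, points, with bars of 1 SE) in 8 comparisons, the group named first minus the group named after it; red points passed an adjusted p under 0.05. The 3 red points, Atf4, Atf5 and Chac1, are all in the comparison of 3xTg with WT under NAVI.

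With DQ and with vehicle the genotypes were closer. With DQ, 0 of 10 members were called by edgeR, DESeq2 or limma-voom, where edgeR called 3.05% of tested genes, and 2 members had an unadjusted p under 0.05, against 17.4% of tested genes. Atf4 was higher in 3xTg by 0.29 (SE 0.0921, edgeR adjusted p = 0.0893), and passed with the GC trend removed (0.41, adjusted p = 0.0342) and without WT DQ replicate 1 (0.38, adjusted p = 0.0319). With vehicle, 0 of 10 members were called by edgeR and by limma-voom and 1 by DESeq2, where edgeR called 13.1% of tested genes and DESeq2 17.3%. In that comparison 3 members had an unadjusted p under 0.05, namely Chac1 (log2 difference -0.46), Atf3 (0.70) and Ddit3 (-0.17), a share near the 32.3% of tested genes below that p. Atf4 stood at 0.08 (SE 0.0798) and Atf5 at 0.03 (SE 0.125), and both turned negative without WT vehicle replicate 3 (-0.04 and -0.17), with no call by edgeR. Without that library Chac1 passed as lower in 3xTg (-0.65, edgeR adjusted p = 0.0244), the only 1 of 12 omissions that gave it a call. Without WT vehicle replicate 4 Chac1 was at -0.20, Atf4 at 0.15 and Atf5 at 0.13, with no call by edgeR.

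In WT, NAVI was set against vehicle, and 0 of 10 members were called by edgeR, DESeq2 or limma-voom, with 0% of all tested genes called by edgeR. An unadjusted p under 0.05 was seen for 4 members and for 7.74% of tested genes. By unadjusted p, Chac1 ranked 3 among the 16369 tested genes (log2 difference -0.96, SE 0.216), Atf5 ranked 5 (-0.61, SE 0.145) and Atf4 ranked 71 (-0.30, SE 0.0920), each with an adjusted p of 0.614. Sesn2 stood at -0.31 (SE 0.140). The mean GC slope of the libraries was -0.0620 in WT with NAVI (range -0.177 to 0.0204) and 0.0914 in WT with vehicle (range -0.0621 to 0.246). Across the 28 libraries the Pearson r of log2 level with that slope was 0.624 for Chac1, 0.230 for Atf5 and -0.00403 for Atf4. Values of this comparison with the GC trend removed are not given here. Without WT vehicle replicate 3, Atf5 was at -0.81 and passed (edgeR adjusted p = 3.3e-05), while Chac1 at -1.15 and Atf4 at -0.41 did not. Replicate 4 was the highest WT vehicle library for each of these genes. Without it Atf5 was at -0.51, Chac1 at -0.71 and Atf4 at -0.22, with no call by edgeR. In group means, Atf5 was at 10.9 ± 0.433 CPM with NAVI and 16.6 ± 5.001 CPM with vehicle (SD, n = 4 each), and Atf4 at 101.8 ± 2.17 CPM with NAVI and 125.0 ± 21.99 CPM with vehicle.

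**Figure D3:**
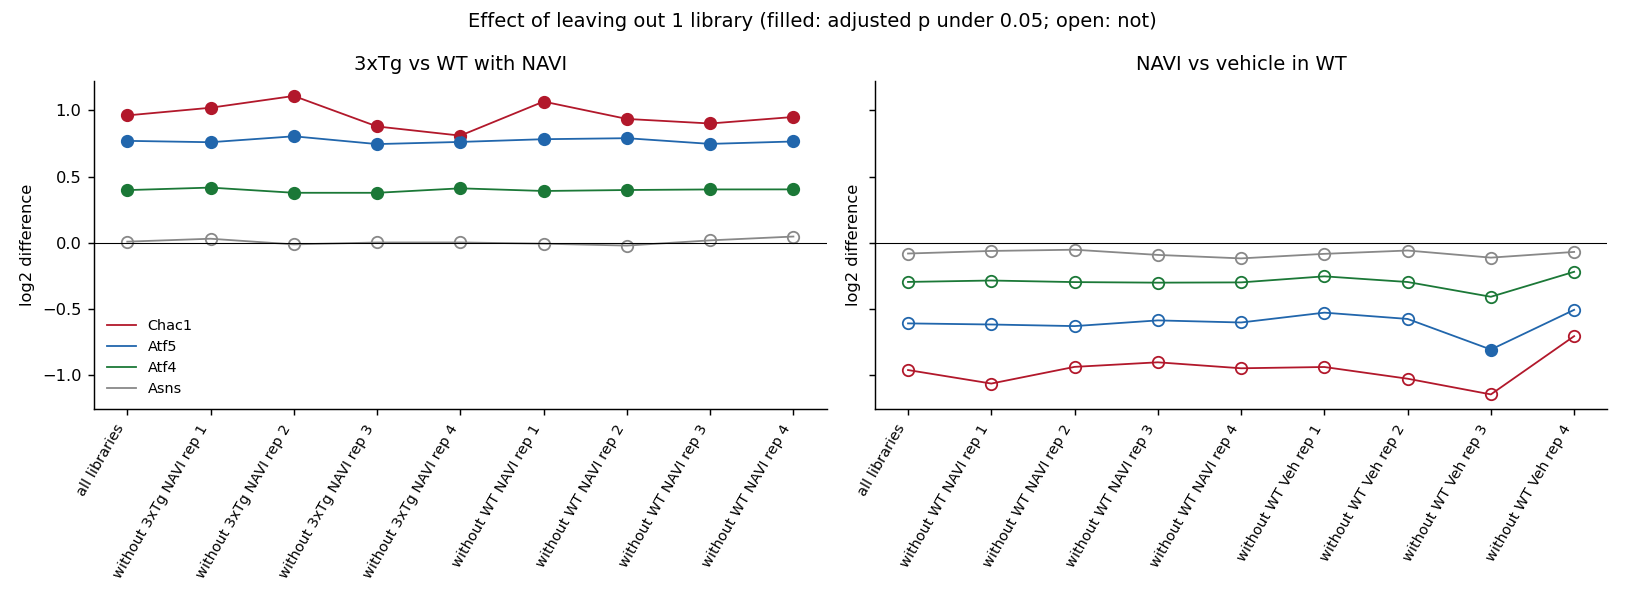
Log2 difference (vertical axis) of Chac1, Atf5, Atf4 and Asns with all libraries and with each library of the comparison left out (horizontal axis), for 3xTg against WT with NAVI on the left and NAVI against vehicle in WT on the right; filled circles passed an adjusted p under 0.05. On the left Chac1, Atf5 and Atf4 are filled throughout, and on the right only Atf5 is filled, at -0.81 without WT vehicle replicate 3.

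With DQ in WT, 0 of 10 members passed by edgeR, DESeq2 or limma-voom, where edgeR called 0.00611% of tested genes. An unadjusted p under 0.05 was seen for 3.38% of tested genes and for 3 members, Atf4 (log2 difference -0.24), Atf5 (-0.33) and Asns (-0.14). Without WT vehicle replicate 3, Atf5 was at -0.52 and was called (edgeR adjusted p = 0.0316). Without WT vehicle replicate 4 it was at -0.22 and was not called. Both drug comparisons in WT share the same 4 vehicle libraries, so each of these libraries enters both.

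In 3xTg mice, NAVI against VehN gave 0 calls among the members by edgeR and by limma-voom and 2 by DESeq2, where edgeR called 0% of tested genes, limma-voom 5.05% and DESeq2 11.9%. An unadjusted p under 0.05 was seen for 2 members, a smaller share than the 29.1% of tested genes. Ddit3 had 15.7, 15.8, 18.9 and 18.9 CPM with NAVI, against 15.4, 13.4, 13.03 and 14.8 CPM with VehN. The log2 difference was 0.29 and missed the threshold (SE 0.0936, edgeR adjusted p = 0.0687). All 4 NAVI libraries were above all 4 VehN libraries, as for 2.83% of tested genes. Chac1 stood at 0.59 on the log2 scale (SE 0.214, edgeR adjusted p = 0.0874), and its groups overlapped. DESeq2 called Ddit3 (0.30, adjusted p = 0.0269) and Chac1 (0.60, adjusted p = 0.0475). With edgeR both passed without 3xTg NAVI replicate 2 (Chac1 0.74, adjusted p = 0.0245; Ddit3 0.34, adjusted p = 0.0280), and Ddit3 passed without VehN replicate 1 (0.35, adjusted p = 0.0223). Ddit3 lies on chromosome 10 from 127290774 to 127296288 and shares 68 exon bases with Mars on the opposite strand and 105 with a second annotated gene of its own name, so its counts are uncertain to that extent. The mean GC slope of the libraries was 0.140 in 3xTg with NAVI and -0.124 with VehN. Across the 28 libraries the log2 level of Ddit3 followed the GC slope (Pearson r = 0.742), as did Sesn2 (0.831) and Chac1 (0.624). Asns went the other way (-0.516), and the remaining members lay between -0.116 for Psat1 and 0.315 for Trib3. The GC content of the longest transcript was 58.7% for Sesn2, 57.4% for Chac1 and 47.7% for Asns. For Ddit3 it was 45.6%, the lowest of the members, so its r with the slope does not go with a high GC content of its own. These values are a description over libraries that share depth and composition.

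DQ against VehD in 3xTg gave 0 calls by edgeR, DESeq2 or limma-voom, with 0% of tested genes called by edgeR, and 0 members and 1.83% of tested genes had an unadjusted p under 0.05. The members' log2 differences ran from -0.40 for Trib3 (SE 0.316) to 0.14 for Sesn2 (SE 0.140), and Atf4 stood at -0.03 (SE 0.0918).

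The difference between the genotypes in their NAVI effect was called for 3 members, all higher in 3xTg, where 5.89% of tested genes were called higher and 8.13% in either direction. Chac1 had an interaction of 1.55 (SE 0.304) and Atf5 of 0.76 (SE 0.205), each with an edgeR adjusted p of 0.0427, and Ddit3 of 0.43 (SE 0.132, adjusted p = 0.0478). In 3xTg the NAVI difference was 0.59 for Chac1, 0.15 for Atf5 (-0.20 with the GC trend removed) and 0.29 for Ddit3, and in WT it was -0.96, -0.61 and -0.14. All 3 calls ended when any of 9 of the 16 libraries was left out, namely 3xTg NAVI replicates 3 and 4, VehN replicates 2 and 3, WT NAVI replicates 2, 3 and 4 and WT vehicle replicates 1 and 4, and that of Ddit3 also without VehN replicate 4. They ended as well with the GC trend removed, with no filter on low counts and with only the libraries of the comparison in the fit. With limma-voom the calls of Atf5 (0.52, adjusted p = 0.107) and Ddit3 (0.35, adjusted p = 0.0617) ended. The vehicle of the 3xTg mice is labelled VehN and that of the WT mice Veh, so a difference between vehicles cannot be told apart from a difference between genotypes here. For DQ, 0 members had a called difference in effect by edgeR, DESeq2 or limma-voom, with 0% of tested genes called by edgeR, and 0 had an unadjusted p under 0.05, against 2.85% of tested genes.

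The 2 vehicles of the 3xTg mice gave 0 called members by edgeR, DESeq2 or limma-voom, with 0% of tested genes called by edgeR, and 2 members with an unadjusted p under 0.05, against 4.93% of tested genes. Ddit4 had 48.3, 55.3, 44.7 and 56.5 CPM with VehN, against 41.8, 36.2, 39.6 and 35.7 CPM with VehD. The log2 difference was 0.42 and was not called (SE 0.118, edgeR adjusted p = 0.796). Every VehN library was above every VehD library, as for 1.48% of tested genes. Ddit4 is a target of glucocorticoids as well as of ATF4. Ddit3 was lower in every VehN library, by -0.23 (SE 0.0934, adjusted p = 0.920), as for 1.23% of tested genes. Ddit4 in NAVI against VehN in 3xTg was -0.14, and with both vehicles as the comparison it was 0.07.

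Atf3 had a higher mean in 3xTg than in WT with each treatment, without a call by edgeR. It had 2.20, 2.76, 3.91 and 2.24 CPM with NAVI in 3xTg, against 1.18, 1.99, 2.14 and 1.24 CPM in WT. With vehicle it had 2.82, 2.50, 1.68 and 1.85 CPM (VehN) and 2.94, 1.85, 2.57 and 2.67 CPM (VehD) in 3xTg, against 1.80, 1.65, 1.22 and 1.10 CPM in WT. The log2 differences were 0.75 with NAVI, 0.47 with DQ (SE 0.297) and 0.70 with vehicle (SE 0.264, edgeR adjusted p = 0.0732, DESeq2 adjusted p = 0.0480). With NAVI and vehicle the 3xTg libraries lay mostly above the WT ones, and with vehicle 1 WT library reached into the 3xTg range.

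Asns and Psat1, the abundant biosynthetic enzymes, were nearly level between the genotypes with NAVI. Asns was at 123.5 ± 5.10 CPM in 3xTg with NAVI and 122.8 ± 7.41 CPM in WT with NAVI, a log2 difference of 0.01 (SE 0.0684). Psat1 was at 181.7 ± 17.0 CPM in 3xTg with NAVI and 171.3 ± 24.9 CPM in WT with NAVI (SD, n = 4 each), a log2 difference of 0.08 (SE 0.0895). Group means of Asns ran from 117.7 to 133.8 CPM, and those of Psat1 from 157.4 to 181.7 CPM. With DQ the log2 differences, 3xTg minus WT, were 0.15 for Asns (SE 0.0685) and 0.16 for Psat1 (SE 0.0896), not called by edgeR. Across all treatments, 6 of 12 WT libraries lay below every 3xTg library for Psat1 and 1 lay above. For Asns 3 lay below and 0 above. The shares of tested genes with as many WT libraries below are not given, so these counts are a description only. Sesn2 had 12.2, 11.2, 16.8 and 16.8 CPM in 3xTg with NAVI, against 12.2, 11.5, 10.2 and 12.9 CPM in WT with NAVI, and the groups overlapped. Trib3 reached at most 0.668 CPM in any library, and its SE of 0.269 to 0.332 on the log2 scale in the 8 direct comparisons leaves wide limits.

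Other genes of the pathway were read from 6 lists with 66 tested genes that hold no member. In 3xTg against WT with NAVI 11 were called higher and 0 lower, with a median log2 difference of 0.14 over the 66, where 3.29% of tested genes were called higher. Amino acid transporters held 4 of these 11 among 10 tested. Slc1a5, which carries glutamine, was at 5.30 ± 1.31 CPM in 3xTg and 1.93 ± 0.375 CPM in WT (SD, n = 4 each), a log2 difference of 1.45. The 2 chains of the leucine exchanger, Slc7a5 and Slc3a2, were higher by 0.42 and 0.28, and the serine carrier Slc1a4 by 0.22.

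Serine, proline and folate enzymes held 3 of 11, and aminoacyl-tRNA synthetases 3 of 13. The mitochondrial folate enzyme Aldh1l2 had 17.8 ± 1.43 CPM in 3xTg with NAVI and 7.18 ± 1.05 CPM in WT with NAVI, a log2 difference of 1.31. Mthfd2, another enzyme of that pathway, was higher by 0.52, and the serine phosphatase Psph by 0.33. The synthetases for alanine (Aars), cysteine (Cars) and methionine (Mars) were higher by 0.28, 0.26 and 0.24. The last call was Gcn1l1, a co-activator of the kinase GCN2, at 0.65, the only call among 14 genes of the eIF2 kinases and eIF2 control. The 5 ATF4 partner factors and 13 other outputs of ATF4 and CHOP held 0 calls by edgeR, with 2 and 4 genes at an unadjusted p under 0.05, against 27.4% of tested genes. The count of 11 was 5 without 3xTg NAVI replicate 4 and 5 without WT NAVI replicate 3, 6 without WT NAVI replicate 4, and 7 without 3xTg NAVI replicate 3 or with the GC trend removed. The shares of all tested genes called in those fits are not given, so the counts only describe how the 11 vary.

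**Figure D4:**
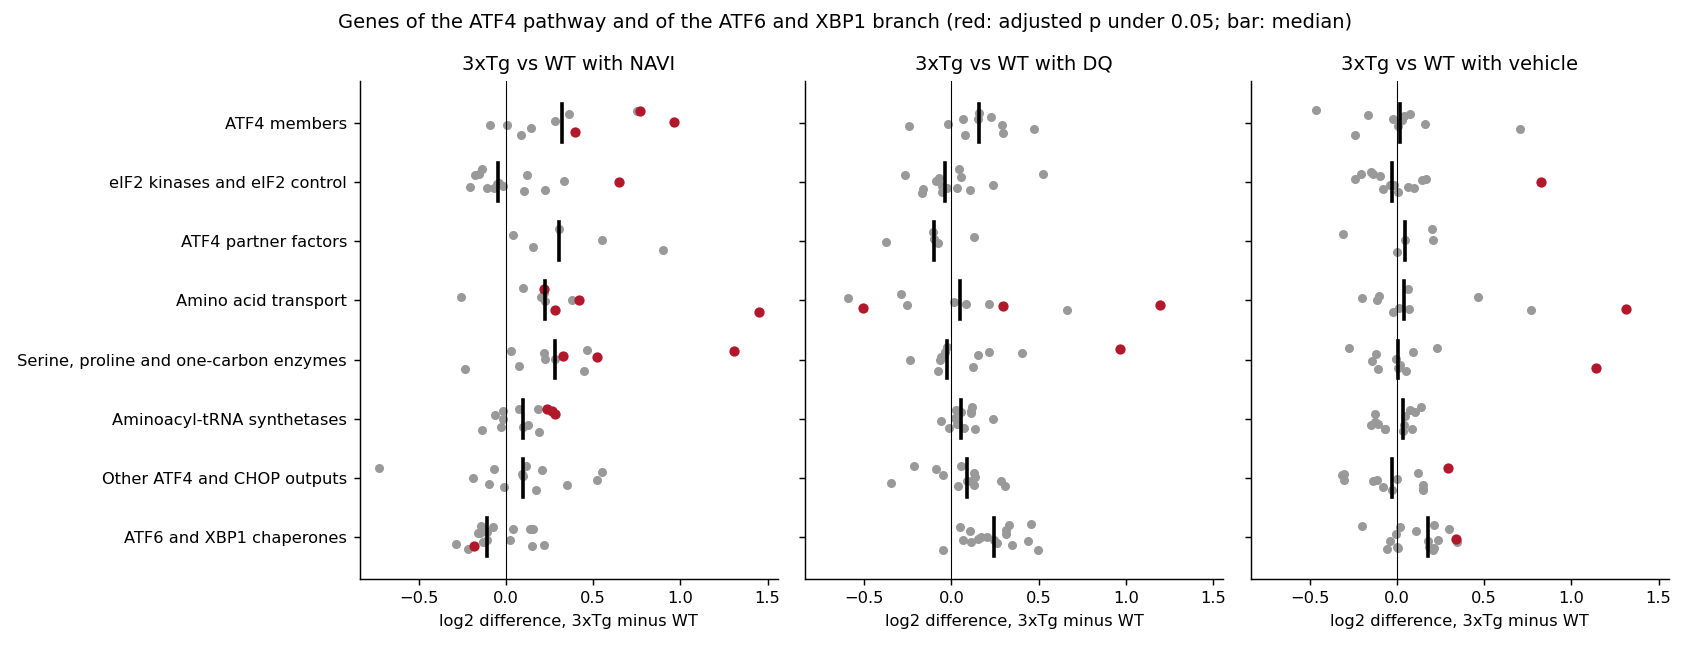
Log2 differences, 3xTg minus WT (horizontal axis), of the members, of the 6 other ATF4 pathway lists and of ATF6 and XBP1 chaperones (rows), with NAVI, DQ and vehicle; each point is a gene, red where the adjusted p was under 0.05, and black bars are medians. The bars of the members, transporters and enzymes lie right of 0 with NAVI, and Slc1a5 and Aldh1l2 are red in all 3 panels.

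With vehicle, 4 of the 66 were called, all higher in 3xTg, near the 5.68% of tested genes called higher: Slc1a5 (1.31), Aldh1l2 (1.14), the antiviral eIF2 kinase Eif2ak2 (0.82) and Ndrg1 (0.29), a stress-responsive gene. With DQ, where 1.68% of tested genes were called higher, 3 were higher, Slc1a5 (1.19), Aldh1l2 (0.96) and Slc1a4 (0.30), and the glutamine carrier Slc38a2 was lower (-0.50), at 127.4 ± 7.55 CPM in 3xTg and 180.7 ± 16.7 CPM in WT (SD, n = 4 each). Slc1a5 and Aldh1l2 passed with each treatment. The count with vehicle was 9 without WT vehicle replicate 2, and that with DQ was 8 without WT DQ replicate 1. Without the 8 libraries with a thalamus score above 0.4, left out after the data were seen, the count with vehicle was 23, of which 11 were higher and 12 lower in 3xTg, and 30.5% of tested genes were called. The NAVI effect differed between genotypes for 6 of the 66, all higher in 3xTg, where 5.89% of tested genes were called higher: Gcn1l1 (0.81), Slc7a5 (0.42), Aars (0.43), Mars (0.33), the tyrosine synthetase Yars (0.28) and the autophagy receptor Sqstm1 (0.30). That count was 0 without any 1 of the same 9 libraries that ended the members' calls, and 10 to 24 without 3xTg NAVI replicate 1 or 2, VehN replicate 1, WT NAVI replicate 1 or WT vehicle replicate 2. For the counts with 1 library left out, the share of all tested genes called is not given, so they are a description only.

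The ATF6 and XBP1 branch, which raises chaperones of the endoplasmic reticulum rather than amino acid genes, was read for contrast. Of 17 tested genes, 1 was called lower in 3xTg with NAVI, Sel1l of the degradation complex (-0.18), with a median of -0.11 over the list and 2 of 17 at an unadjusted p under 0.05. With vehicle 1 was called higher, the mannosidase-like Edem1 (0.34), with a median of 0.18 and 8 of 17 at that p. With DQ 0 were called by edgeR, with a median of 0.24 and 12 of 17 at that p. The shares of all tested genes at that p were 27.4% with NAVI, 32.3% with vehicle and 17.4% with DQ.

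The members did not move as 1 block. Over 45 pairs the Pearson correlation of log2 CPM across 28 libraries had a median of 0.224 and a range of -0.281 to 0.881, and 7 pairs exceeded 0.5. The highest was Atf4 with Atf5. These points share libraries, depth and composition, and are a description. In WT the libraries fell into 8 at 93.6 to 111.7 CPM and 4 at 124.2 to 144.0 CPM of Atf4. No correlation is therefore given within WT, and those of Atf4 across the 28 libraries span this split. Within the 16 3xTg libraries Atf5 did not follow Atf4 (r = 0.00840, permutation p = 0.975; rho = -0.0765, permutation p = 0.777; adjusted p = 0.985 and 0.960 over 18 relations computed, those in WT among them), and r was -0.334 without the 2 libraries farthest from the median. Atf4 spanned only 120.2 to 139.5 CPM in these libraries, which limits what a low r can show.

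**Figure D5:**
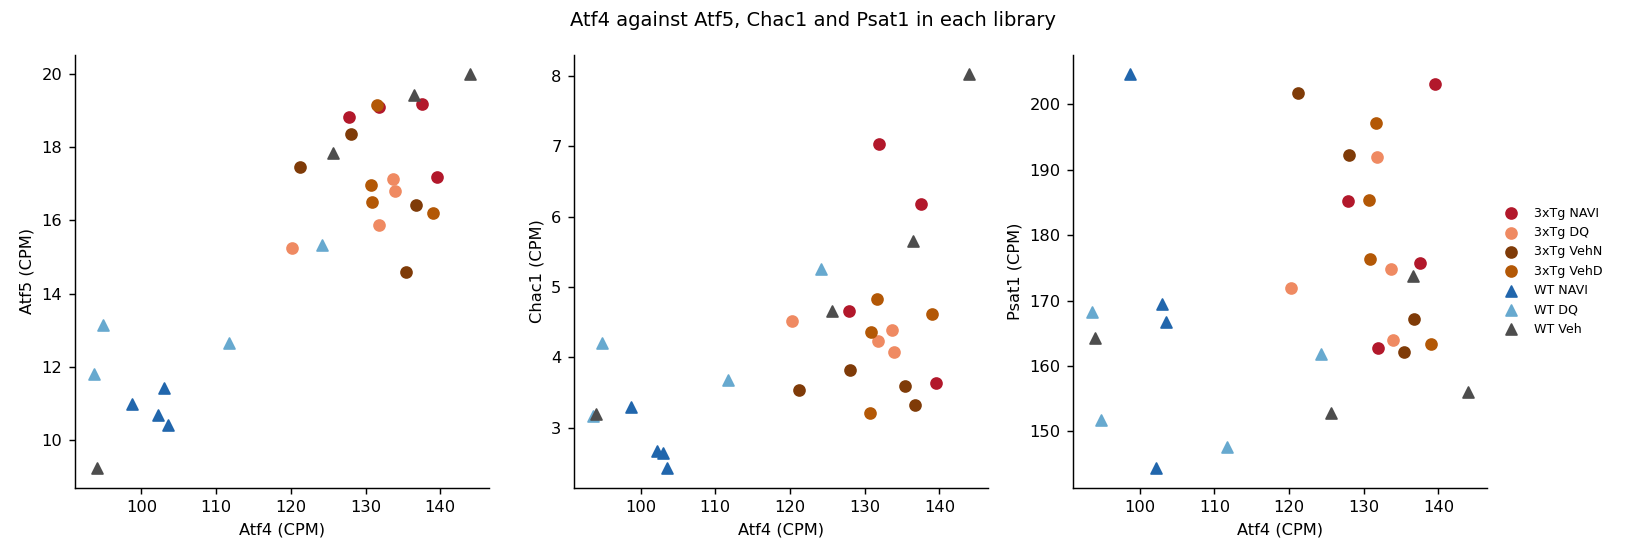
Atf5, Chac1 and Psat1 (vertical axes, CPM) against Atf4 (horizontal axis, CPM) in each library, with circles for 3xTg and triangles for WT. Axes do not start at 0. Low WT libraries are at the lower left for Atf5 and Chac1, and 3xTg libraries sit between 120.2 and 139.5 CPM of Atf4, while Psat1 shows no such split.

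The genes most like the mean log2 level of the members across 28 libraries were Capg, an actin-capping protein (r = 0.885), Mfn2, of mitochondrial fusion (0.837), the oxidase subunit Cyba (0.833), the cathepsin Ctsz (0.830) and Ncstn, a subunit of gamma-secretase (0.820). Those most like Atf3, the member with the largest spread on the log2 scale, were Vim (0.846), the complement gene C3 (0.805), the microglial gene Fcrls (0.796), S100a6 (0.782) and Lyz2 (0.778). For Atf4, looked up after its values were seen, Atf5 was first (0.881), followed by Dcaf8 (0.860) and Cars (0.850). These values span the split among the WT libraries. Within the 16 3xTg libraries r was 0.00841 for Atf5, -0.189 for Dcaf8 and 0.234 for Cars. Among the 163 tested genes with the highest r with Atf4, the top 1%, 13 were from the 66 other pathway genes, whose median r was 0.200, against 0.000494 over all other tested genes. Within the 3xTg libraries the 13 had r of -0.288 to 0.507, with a median of 0.152. All 163 genes of the top 1% had a median of 0.108 there (range -0.439 to 0.688). The median over all tested genes other than Atf4 was -0.00620. The top 1% was picked over 28 libraries that include these 16, so a raised median among its genes is partly built in.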

How the data were processed

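Per the labels' protocols, hippocampal mRNA libraries were stranded and read from both ends (100 bases). STAR, Subread, featureCounts and mm10 are named, without versions or roles, in the submitters' processing notes. No source used here gives the strand setting or annotation. The deposited table holds the authors' raw counts per gene symbol for each library, with 0 columns left unused. The 10 members and all gene lists were chosen with earlier results of these data known. Counts were tested with edgeR 4.0.16 (R 4.3.3; TMM, filterByExpr, all 28 libraries in 1 fit, quasi-likelihood test, two-sided), with Benjamini-Hochberg adjustment over 16369 genes in each of 10 comparisons; 7693 genes were filtered out. The SE is the absolute log2 difference over the square root of F. CPM used TMM factors, and log2 CPM a prior count of 2. The genotype comparison with vehicle set the mean of VehN and VehD against Veh. Members are always named; of other lists, up to 4 genes with the smallest p per comparison, with every called gene of the pathway lists added after the values were seen. Likeness is Pearson's r. Alternatives were RLE and upper-quartile factors, DESeq2 1.42.0, limma 3.58.1 voom with quality weights, 2 other filters, comparison libraries alone, a replicate block, tissue scores as covariates, GC trends removed (splines, 15590 genes), other vehicles and libraries left out. No library was a copy of another (chi-square per degree of freedom at least 12.8). Scripts were tested on simulated data.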

Additional observations from a re-analysis of the deposited data

Results flagged for a closer look

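In 4 of 70 sets of 4 libraries examined (10 members in 7 groups), a library stood apart from the other 3 by Dixon's test, which happens by chance in about 1 of 20 sets. They were Atf4 in 3xTg DQ replicate 3 (120.2 CPM, others 131.8 to 134.0), Atf4 in 3xTg VehD replicate 2 (139.0 CPM, others 130.7 to 131.6), Ddit3 in 3xTg VehD replicate 4 (17.9 CPM, others 16.1 to 16.4) and Trib3 in WT NAVI replicate 1 (0.240 CPM, others 0.367 to 0.381). By edgeR's interaction test the NAVI difference was called as unlike between the genotypes, 3xTg minus WT, for Chac1 (1.55), Atf5 (0.76) and Ddit3 (0.43), where 8.13% of tested genes were called. The calls of Chac1 and Atf5 ended in 9 of 16 fits with a library left out, and that of Ddit3 in 10. The vehicle was VehN in 3xTg and Veh in WT, so vehicle and genotype cannot be told apart.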

How the results depend on the processing

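Of 2130 log2 differences of members under the alternatives, 41 lost a call and 20 gained one. Of those whose call did not change, 133 changed sign, 1916 kept their sign and 20 kept it but moved by over 1 SD of the gene within groups. The 133 belong to 40 of the 100 differences, and 0 of them were called by edgeR with all libraries or by the test of the alternative. Trib3 in DQ against VehD in 3xTg, at -0.40, was the largest of these and stood at 0.13 without the 8 libraries below. Sesn2 in NAVI against VehN in 3xTg was at 0.20 and, with the GC trend removed, -0.08. Members called in 3xTg against WT with vehicle (0) became 1 with DESeq2 and 1 with the replicate block, and 0 to 1 with a library left out; in NAVI against VehN in 3xTg (0) they became 2 with DESeq2, 1 with the block and 0 to 2 with a library left out; NAVI in WT and DQ in WT (0 each) gave 0 to 1. In 3xTg against WT, with NAVI 3 became 1 with the GC trend removed, and with DQ 0 became 1, and 0 to 1 with a library left out. The NAVI effect by genotype (3) gave 5 with DESeq2, 1 with limma-voom, 0 with no low count filter, 0 with only the libraries of the comparison, 0 with the GC trend removed and 0 to 4 with a library left out.

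For the other pathway genes, the count with vehicle (4) was 7 with DESeq2, 8 with the block, 3 to 9 with a library left out and 23 (11 higher, 12 lower) without the 8 libraries with a thalamus score above 0.4, an alternative chosen after seeing the data. With NAVI 11 became 7 with only the libraries of the comparison, 7 with the GC trend removed and 5 to 16 with a library left out. With DQ 4 became 8 with limma-voom, 8 with the GC trend removed, 2 without the 8 libraries and 4 to 8 with a library left out. The NAVI effect by genotype (6) gave 18 with DESeq2, 10 with limma-voom, 0 with no filter, 0 with only the comparison's libraries, 22 with the block, 14 with tissue scores as covariates, 0 with the GC trend removed, 26 without the 8 libraries and 0 to 24 with a library left out. Where no share of all tested genes is printed beside a count from an alternative, that share is not given here. Such counts are a description and no result about these genes. The causes were not tested. Same-numbered libraries of different groups correlated with a median r of 0.0819 over 84 pairs (range -0.590 to 0.699). For different numbers the median was -0.0227 over 252 pairs (range -0.666 to 0.699). Of 28 libraries, 11 correlated best with their own number. Whether equal numbers pair the libraries was not tested. The main fit did not use the numbers, and the replicate block among the alternatives did. Low counts limit Trib3, and sets of 4 libraries limit all comparisons.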
